A study of Mus musculus with 18 samples.

Results

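The IL-1 and IL-18 axis was described here as 9 genes taken by symbol from the 41605 gene identifiers of the count files: the cytokines Il1a, Il1b and Il18, the antagonists Il1rn and Il18bp, the receptor chains Il1r1, Il1r2 and Il1rap, and the protease Casp1. They were measured by bulk RNA sequencing in the skin of C57BL/6 mice aged 8 to 12 weeks. The 18 libraries comprised 6 from skin treated with Detergent A, 6 from skin treated with Detergent B and 6 from skin treated with PBS, phosphate-buffered saline, as the control. The labels name no mutant allele, transgene or other agent in any group, give neither dose nor duration of treatment, and do not say what the detergents are or whether each library came from its own animal. The series compares each detergent with PBS, and the remaining pair, Detergent B with Detergent A, was tested as well.

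IL-1 alpha, IL-1 beta and IL-18 are alarm cytokines of epithelia and immune cells. Keratinocytes hold IL-1 alpha and the IL-18 precursor before any injury and can release them when the barrier is damaged, whereas IL-1 beta is made mainly by stimulated myeloid cells. IL-1 beta and IL-18 are made as inactive precursors that caspase-1, the protease activated in inflammasomes, cuts to their active forms, so the RNA levels given here say nothing of how much active cytokine was present.

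Among the 9 genes, Il1a and Il18 rose in Detergent B skin, by 1.61-fold and 1.98-fold over PBS skin, and no gene fell. In Detergent A skin none of the 9 passed the test, although all 6 libraries exceeded the PBS median for Il1a, for Il18 and for Il1rn. The receptor chains, Il18bp and Casp1 had nearly the same mean level in all 3 groups. Il1b was low in most libraries and high in a few detergent libraries.

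Il1a (ENSMUSG00000027399, chromosome 2, 129299610 to 129309972, minus strand, GRCm38) and Il1b (ENSMUSG00000027398, chromosome 2, 129364570 to 129371139, minus strand) are neighbours with 54.6 kb between them. Il1r2 (ENSMUSG00000026073, chromosome 1, 40074079 to 40125231, plus strand) and Il1r1 (ENSMUSG00000026072, chromosome 1, 40225080 to 40317257, plus strand) lie 99.8 kb apart. Il1rn (ENSMUSG00000026981) is at 24336853 to 24351494 on the plus strand of chromosome 2, Il18 (ENSMUSG00000039217) at 50554827 to 50581840 and Casp1 (ENSMUSG00000025888) at 5298517 to 5307265, both on the plus strand of chromosome 9. Il18bp (ENSMUSG00000070427) is at 102014885 to 102018690 on the minus strand of chromosome 7, and Il1rap (ENSMUSG00000022514) at 26581704 to 26730117 on the plus strand of chromosome 16. All 9 are protein-coding, and values cover the exons of each gene, its untranslated regions included. Exons of 4 of them overlap a gene on the opposite strand: Gm14023 covers 11.2% of the exon bases of Il1a, Gm20319 4.86% of Il1rap, Numa1 2.64% of Il18bp and Il1bos 1.31% of Il1b. Whether reads there were told apart by strand is not known, since the strand setting of the counting is not given in the sources used here.

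The promoters of the 3 cytokine genes are shown because their RNA behaved differently across the libraries. Each window runs from 250 bases before to 50 bases after the start site, 5′ to 3′ on the strand of the gene, from RefSeq on GRCm38.p6. Capitals mark the matches to TATAAA, the TATA box, and to TGANTCA, an AP-1 site, searched on both strands. The windows are Il1a, chr2:129309923-129310222, minus strand; Il1b, chr2:129371090-129371389, minus strand; and Il18, chr9:50554450-50554749, plus strand.
Il1a: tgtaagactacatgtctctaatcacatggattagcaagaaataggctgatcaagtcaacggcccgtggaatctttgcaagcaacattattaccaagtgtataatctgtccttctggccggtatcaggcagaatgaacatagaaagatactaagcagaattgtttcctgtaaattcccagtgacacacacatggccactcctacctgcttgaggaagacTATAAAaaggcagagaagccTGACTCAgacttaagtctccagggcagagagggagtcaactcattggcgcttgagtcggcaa
Il1b: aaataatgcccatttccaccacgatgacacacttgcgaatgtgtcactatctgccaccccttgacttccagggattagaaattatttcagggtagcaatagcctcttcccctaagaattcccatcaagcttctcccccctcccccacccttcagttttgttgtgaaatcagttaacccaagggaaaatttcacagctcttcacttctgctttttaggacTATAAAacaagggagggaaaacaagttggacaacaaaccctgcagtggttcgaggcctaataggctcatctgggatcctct
Il18: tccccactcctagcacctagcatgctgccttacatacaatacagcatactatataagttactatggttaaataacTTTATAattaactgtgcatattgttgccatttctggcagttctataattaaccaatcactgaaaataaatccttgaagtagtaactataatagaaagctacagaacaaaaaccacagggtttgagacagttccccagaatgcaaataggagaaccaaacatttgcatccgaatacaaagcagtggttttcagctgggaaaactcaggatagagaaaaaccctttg

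The Il1a window holds TATAAA starting 32 bases and TGACTCA starting 12 bases before the start site. The Il1b window holds TATAAA starting 31 bases before it. The Il18 window has TATAAA only on the reverse strand, printed as TTTATA, starting 175 bases before the start site. Of 32851 mouse promoter windows of the same length, 13.6% hold TATAAA and 7.81% hold TGANTCA on either strand. No exact match to GGGRNYYYCC, a strict NF-kappaB pattern (R is A or G, Y is C or T, N any base), was found on either strand of the 12 windows listed for the 9 genes. Of all windows 5.8% hold it. Sites that differ from this pattern or lie outside the windows were not searched for. These matches describe letters in these windows and were not tested for binding.

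The files held 17312623 to 29599018 counts per library, and all 9 genes passed the filter on low counts that left 16836 genes to test. The lowest count behind any value was 68, for Il1b in Detergent A replicate 6, and the highest was 4829, for Il1rn. In this fit 0.19% of all genes were called in Detergent A against PBS, 3.05% in Detergent B against PBS and 0.0% in Detergent B against Detergent A. Both detergent comparisons use the same 6 PBS libraries, so they are not independent of each other. The tissue is a mixture, and fewer cells of a type cannot be told apart from less RNA per cell. Keratinocyte genes were abundant in every library: 6 suprabasal genes summed to 15691.8 to 37771.4 CPM (read counts scaled to library size) in Detergent A skin, 22736.5 to 40610.4 in Detergent B skin and 10020.0 to 23831.7 in PBS skin.

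To compare genes, CPM was divided by the exon length in kilobases. On that scale Il18 had the highest mean level in all 3 groups, with 64.4 ± 19.7 CPM per kb in Detergent A skin, 82.2 ± 22.0 in Detergent B skin and 41.5 ± 17.2 in PBS skin (SD, n = 6 each). Il1r2, the decoy receptor, was next, with means of 32.7 ± 11.0 CPM per kb in Detergent A skin, 34.2 ± 9.33 in Detergent B skin and 33.3 ± 7.97 in PBS skin. Il1rn followed with 27.2 ± 7.09 in Detergent A skin, 25.3 ± 2.71 in Detergent B skin and 18.4 ± 3.03 CPM per kb in PBS skin. Below these lay Il1a, Casp1 and Il1r1, with mean levels over the 18 libraries of 15.6, 15.0 and 10.0 CPM per kb. In PBS skin alone Casp1 was above Il1a, at 14.3 ± 0.967 against 11.8 ± 1.71 CPM per kb. Il1b, Il1rap and Il18bp were lowest, at 6.67, 3.24 and 2.5 CPM per kb over the 18 libraries. Some neighbours in this order had group means closer than the larger SD. In both detergent groups these were Il1r2 and Il1rn, Il1a and Casp1, Il1r1 and Il1b, and Il1b and Il1rap, and in Detergent A skin also Il1rap and Il18bp. In PBS skin they were Il18 and Il1r2, and Il1b and Il1rap.

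**Figure D1:**
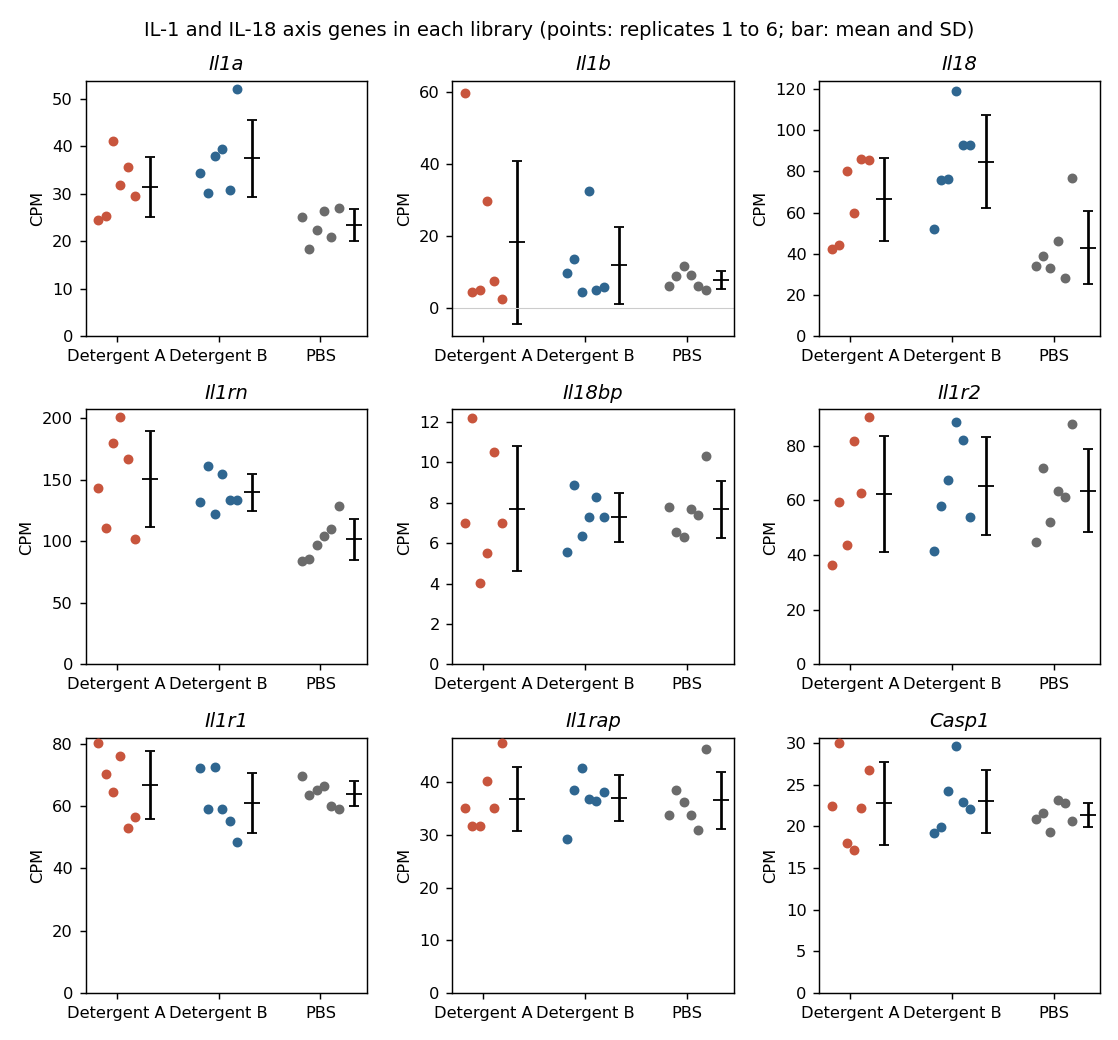
Expression of the 9 genes in CPM (y axis, from 0) in each library, for Detergent A, Detergent B and PBS (x axis). Points are replicates 1 to 6, drawn from left to right within a group, and bars give the mean and SD of 6 libraries. For Il1a all 6 Detergent B points lie above all 6 PBS points, and for Il1b the points of Detergent A replicates 1 and 4 and Detergent B replicate 4 stand apart, at 59.9, 29.9 and 32.5 CPM.

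Il1a encodes IL-1 alpha, which signals through the receptor built from Il1r1 and Il1rap and is active without being cut. Its level ran from 24.4 to 41.1 CPM with a median of 30.8 in Detergent A skin, from 30.2 to 52.1 with a median of 36.2 in Detergent B skin, and from 18.4 to 27.1 with a median of 23.6 in PBS skin. The lowest Detergent B library was above the highest PBS library, while 4 of 6 Detergent A libraries were above it. Il1a was the only gene of the 9 whose Detergent B and PBS libraries did not overlap, and 1.72% of all genes tested were higher in Detergent B in that way. No gene of the 9 was above PBS in Detergent A without overlap, against 0.404% of all genes. The log2 fold change was 0.68 ± 0.15 (SE; 95% interval 0.37 to 1.0) in Detergent B against PBS, with an adjusted p of 0.02561 by edgeR's quasi-likelihood test with Benjamini-Hochberg adjustment over all 16836 genes. In Detergent A it was 0.43 ± 0.15 (95% interval 0.11 to 0.74), with an adjusted p of 0.1408. The Detergent B call was lost without Detergent B replicate 6 (adjusted p = 0.05661), PBS replicate 2 (0.0787), PBS replicate 3 (0.07119) or PBS replicate 5 (0.06952), and held without each of the other 14 libraries.

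Il18 encodes IL-18, which acts on T cells and natural killer cells through its own receptor. It ran from 42.3 to 86.2 CPM with a median of 70.0 in Detergent A skin, from 51.8 to 119.2 with a median of 84.5 in Detergent B skin, and from 28.1 to 76.7 with a median of 36.3 in PBS skin. The highest PBS value belongs to replicate 6. The other 5 PBS libraries reached at most 46.3 CPM, below all 6 Detergent B libraries and below 4 of 6 Detergent A libraries. The log2 fold change over PBS was 0.99 ± 0.25 (95% interval 0.46 to 1.52, adjusted p = 0.04162, edgeR) in Detergent B and 0.63 ± 0.25 (95% interval 0.11 to 1.16, adjusted p = 0.1837) in Detergent A. Without PBS replicate 6 both comparisons were called, with log2 fold changes of 1.23 in Detergent B (adjusted p = 0.007512) and 0.88 in Detergent A (adjusted p = 0.03224).

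The Il18 call in Detergent B was less steady than that of Il1a and held in 8 of the 18 fits that leave out a single library. It was lost without Detergent B replicate 2, 4, 5 or 6, with adjusted p of 0.07572, 0.08575, 0.08373 and 0.08156, and without Detergent A replicate 5 (0.0504). It was also lost without PBS replicate 1, 2, 3, 4 or 5, with adjusted p of 0.09103, 0.1108, 0.1062, 0.06136 and 0.1017. In the 18 fits the log2 fold change stayed between 0.88 and 1.23. Il1a and Il18 were the 2 genes of 9 called in Detergent B, where 1.97% of all genes were called higher.

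Il1b encodes IL-1 beta. Its level ran from 2.7 to 59.9 CPM with a median of 6.34 in Detergent A skin, from 4.62 to 32.5 with a median of 7.91 in Detergent B skin, and from 5.25 to 11.7 with a median of 7.56 in PBS skin. Detergent A replicates 1 and 4, at 59.9 and 29.9 CPM, and Detergent B replicates 2 and 4, at 13.7 and 32.5 CPM, were above every PBS library, whereas 3 of 6 Detergent A libraries and 2 of 6 Detergent B libraries were below every PBS library. The coefficient of variation was 124.2% in Detergent A, 88.7% in Detergent B and 30.9% in PBS skin. The log2 fold change was 1.2 ± 0.66 (adjusted p = 0.3284, edgeR) in Detergent A and 0.59 ± 0.65 (adjusted p = 0.6128) in Detergent B, and neither passed the test. Without Detergent A replicate 1 the value in Detergent A was 0.34, and without Detergent B replicate 4 the value in Detergent B was -0.01.

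Genes picked for a pattern like that of Il1b were high in the same libraries. The summed neutrophil markers were above every PBS library in Detergent A replicates 1 and 4 and Detergent B replicate 4. In Detergent B replicate 4 this did not hold without S100a8 and S100a9. The summed monocyte and macrophage markers were not above every PBS library in any of these. Hdc, which makes histamine (r = 0.93), and Trem1, a receptor of neutrophils and monocytes (r = 0.91), were the 2 of 13627 genes most like Il1b. Likeness was taken across the 18 libraries, after the mean of each group was taken out. High values of these 2 genes in the libraries with high Il1b follow from how they were picked. Hdc was at 40.2 and 30.2 CPM in Detergent A replicates 1 and 4 and 18.9 CPM in Detergent B replicate 4, against 5.23 to 14.0 CPM in PBS skin. Trem1 was at 6.49 and 3.96 CPM in those Detergent A libraries and 2.3 CPM in Detergent B replicate 4, against 0.416 to 1.47 CPM in PBS skin. Cxcl2, a neutrophil attractant chosen here after its values were seen, was at 35.7 CPM in Detergent A replicate 1, 3.79 in Detergent A replicate 4 and 18.9 in Detergent B replicate 4, against 1.01 to 1.45 CPM in PBS skin. In the other 9 detergent libraries except Detergent B replicate 2 (7.42 CPM), Cxcl2 lay between 0.253 and 3.0 CPM.

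Of 10 neutrophil marker genes, 7 passed the filter on low counts and none was called in either detergent by edgeR. Of all genes, 0.19% were called in Detergent A and 3.05% in Detergent B. The median log2 fold change of the 7 was 0.93 in Detergent A and 0.0 in Detergent B, beside -0.01 over all genes in each. The 10 genes summed to 31.1 to 265.2 CPM in Detergent A skin, 53.5 to 364.2 in Detergent B skin and 35.3 to 86.6 in PBS skin. The sum was 265.2 and 237.5 CPM in Detergent A replicates 1 and 4 and 144.7 in Detergent B replicate 4. Also above the PBS range were Detergent A replicate 3 (106.8) and Detergent B replicates 2 (364.2) and 6 (108.2). S100a8 and S100a9, which keratinocytes can also make, carried much of the high sums. Without them the sum in the libraries with the highest Il1b was 60.5 and 118.5 CPM in Detergent A replicates 1 and 4 and 38.7 in Detergent B replicate 4, against 26.9 to 50.2 CPM in PBS skin. It was also above the PBS range in Detergent B replicate 2 (61.8) and in libraries with low Il1b, Detergent A replicate 3 (56.8) and Detergent B replicate 6 (54.7). Csf3r, the G-CSF receptor carried by neutrophils and chosen after its values were seen, was at 15.8 and 43.2 CPM in Detergent A replicates 1 and 4 and 9.53 CPM in Detergent B replicate 4, against 9.02 to 20.8 CPM in PBS skin. Ly6g and Ngp, also on the list, were at 0 counts in 13 and 12 of the 18 libraries, with highest counts of 4 and 2. Cxcr2, Retnlg and Mmp8 reached 61.2, 3.21 and 2.25 CPM in Detergent A skin, against at most 22.2, 1.05 and 0.982 in PBS skin. Mmp9 and Camp reached 8.47 and 0.317 CPM in Detergent A skin, against at most 8.55 and 0.576 in PBS skin. The 10 monocyte and macrophage markers summed to 342.5 to 1485.3 CPM in Detergent A skin, 692.7 to 2030.1 in Detergent B skin and 715.5 to 1535.5 in PBS skin, with none of 10 called. In Detergent A replicates 1 and 4 this sum was 685.4 and 498.1 CPM, below every PBS library. In Detergent B replicate 4 it was 1386.9 CPM, within the PBS range. Cd14, on this list and chosen after its values were seen, went the other way. It was at 39.0 and 19.3 CPM in Detergent A replicates 1 and 4 and 24.8 CPM in Detergent B replicate 4, against 8.55 to 12.2 CPM in PBS skin. The part of any of these cells in the Il1b values was not tested.

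**Figure D2:**
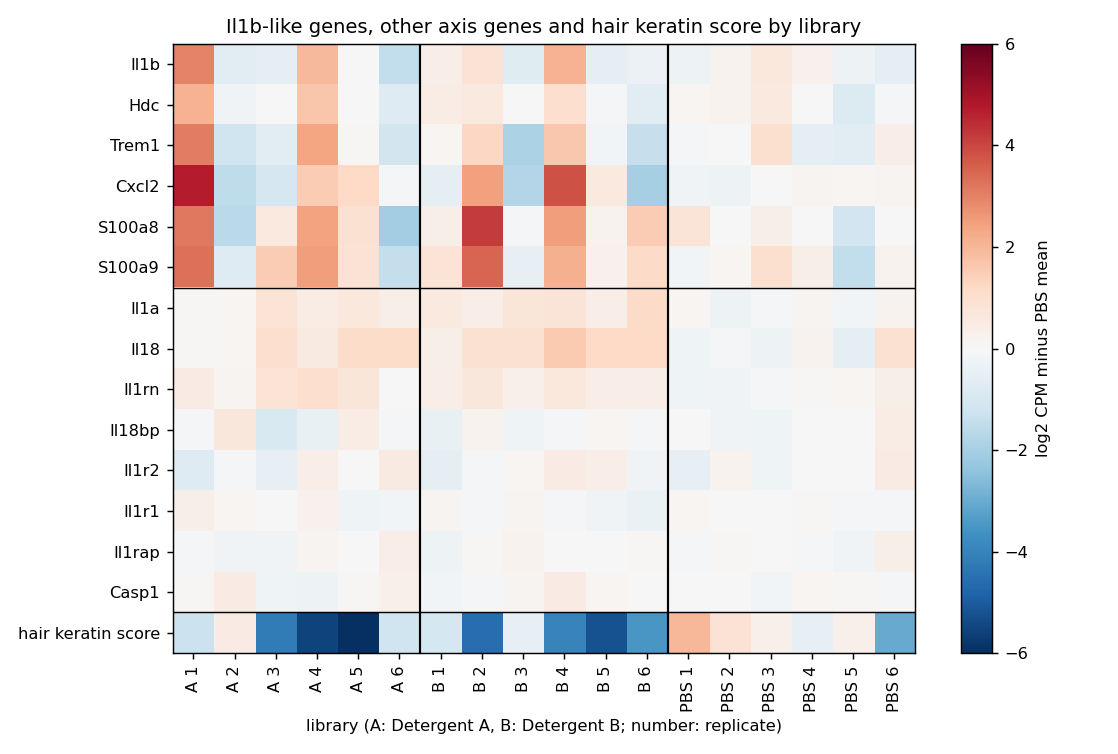
Level of Il1b, of 5 genes set beside it, of the other 8 genes of the axis and of the hair keratin score in each library, as log2 CPM minus the mean of the 6 PBS libraries (colour scale), with libraries in columns (A, Detergent A; B, Detergent B). Detergent A replicates 1 and 4 and Detergent B replicate 4 are red for Il1b, Hdc, Trem1 and Cxcl2. Detergent B replicate 2 is also above the PBS mean for these genes, by 0.844, 0.568, 1.241 and 2.469. Il1a and Il18 are spread more evenly over the detergent libraries.

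The IL-1 receptor antagonist, encoded by Il1rn, occupies Il1r1 without signalling. It ran from 101.8 to 201.4 CPM with a median of 155.1 in Detergent A skin, from 122.5 to 161.7 with a median of 133.9 in Detergent B skin, and from 84.3 to 129.1 with a median of 101.0 in PBS skin. All 12 detergent libraries lay above the PBS median, and 4 of 6 Detergent A and 5 of 6 Detergent B libraries lay above the highest PBS library, replicate 6. The log2 fold change was 0.57 ± 0.15 (95% interval 0.25 to 0.89, adjusted p = 0.0722, edgeR) in Detergent A and 0.46 ± 0.15 (95% interval 0.14 to 0.78, adjusted p = 0.08735) in Detergent B, neither past the threshold of 0.05. Leaving out PBS replicate 6 brought both past it (adjusted p = 0.02673 in Detergent A and 0.03294 in Detergent B), as did leaving out Detergent A replicate 2 (0.02363) or replicate 6 (0.02186) for Detergent A. Il1rn was called in Detergent A by DESeq2 (adjusted p = 0.01474), which called 1 of the 9 genes there, and limma with quality weights called 3 (Il1a, Il18 and Il1rn). Over all genes in Detergent A, DESeq2 called 797 of 15537 given an adjusted p, limma 3914 of 16836 and edgeR 32 of 16836. In Detergent B Il1rn was called by limma with quality weights (adjusted p = 0.002744) and by edgeR fitted to only the 12 libraries compared (0.034). Over all genes these 2 settings called 5074 of 16836 and 737 of 16439 in Detergent B.

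At an unadjusted p under 0.05, 3 of 9 genes passed in Detergent A, where 18.8% of all genes did, and 3 of 9 in Detergent B, where 23.3% did. In both cases these were Il1a, Il18 and Il1rn. The median log2 fold change of the 9 genes was 0.09 in Detergent A and 0.1 in Detergent B, beside -0.01 over all genes in each.

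Il18bp encodes a secreted protein that binds IL-18 and keeps it from its receptor. Its level ran from 4.03 to 12.2 CPM with a median of 6.98 in Detergent A skin, from 5.57 to 8.89 with a median of 7.27 in Detergent B skin, and from 6.29 to 10.3 with a median of 7.55 in PBS skin. The groups overlapped throughout, and the widest spread was in Detergent A. The log2 fold change was 0.01 ± 0.22 (95% interval -0.45 to 0.47, adjusted p = 0.9884, edgeR) in Detergent A and -0.08 ± 0.22 (95% interval -0.54 to 0.38, adjusted p = 0.8599) in Detergent B. The intervals span folds of 0.731 to 1.38 in Detergent A and 0.689 to 1.31 in Detergent B.

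Il1r1, the signalling receptor chain, averaged 66.7 ± 10.8 CPM in Detergent A skin, 61.0 ± 9.51 in Detergent B skin and 63.9 ± 4.0 in PBS skin (SD, n = 6 each). Il1r2, which binds IL-1 but does not signal, averaged 62.4 ± 21.0 CPM in Detergent A skin, 65.2 ± 17.8 in Detergent B skin and 63.6 ± 15.2 in PBS skin. Il1rap, the chain shared by the receptors for IL-1, IL-33 and IL-36, averaged 36.9 ± 6.07 CPM in Detergent A skin, 37.0 ± 4.38 in Detergent B skin and 36.6 ± 5.39 in PBS skin. No receptor chain had groups that stood apart, and each group mean lay within 1 SD of the others. In Detergent A the log2 fold changes over PBS were 0.06 ± 0.11 for Il1r1, -0.03 ± 0.22 for Il1r2 and 0.01 ± 0.11 for Il1rap. In Detergent B they were -0.07 ± 0.11 for Il1r1, 0.04 ± 0.22 for Il1r2 and 0.02 ± 0.11 for Il1rap. Their adjusted p by edgeR ran from 0.7419 to 0.966. The 95% intervals were narrow for Il1rap, from -0.23 to 0.26 in both detergents, and wide for Il1r2, from -0.5 to 0.45 in Detergent A and from -0.44 to 0.51 in Detergent B.

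Casp1 encodes caspase-1. It averaged 22.8 ± 4.95 CPM in Detergent A skin, 23.0 ± 3.79 in Detergent B skin and 21.4 ± 1.45 in PBS skin (SD, n = 6 each). The log2 fold change was 0.09 ± 0.13 (95% interval -0.19 to 0.37, adjusted p = 0.7443, edgeR) in Detergent A and 0.1 ± 0.13 (95% interval -0.17 to 0.38, adjusted p = 0.6576) in Detergent B. Its PBS libraries were close together, between 19.3 and 23.2 CPM, with 2 Detergent A and 2 Detergent B libraries above them, and 2 Detergent A libraries (the lowest at 17.2 CPM) and 1 Detergent B library (19.2 CPM) below them.

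**Figure D3:**
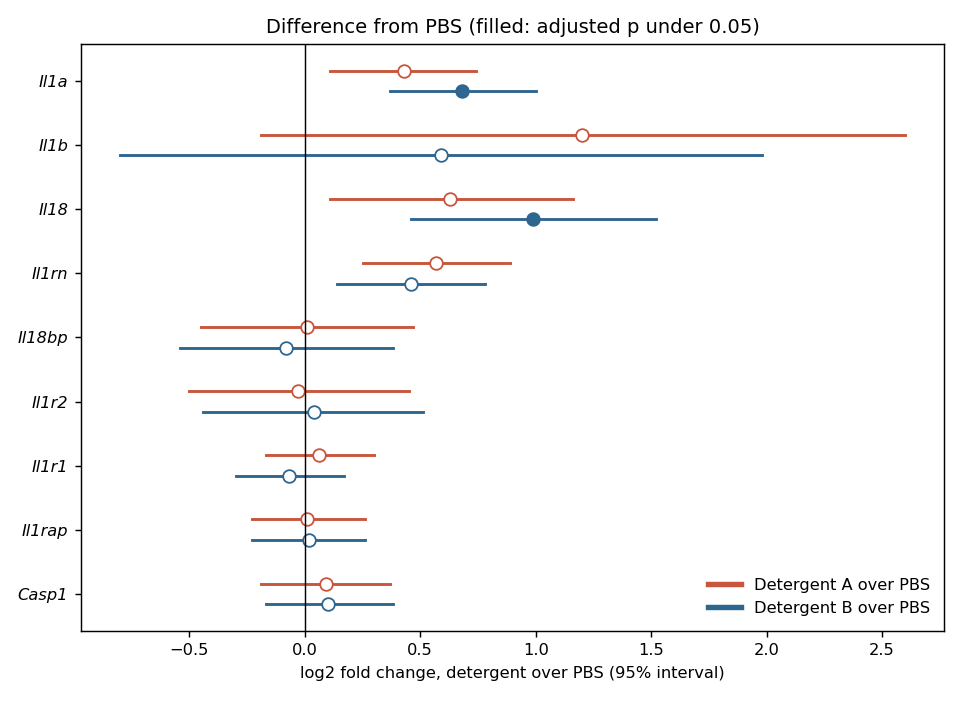
Log2 fold change of each gene over PBS (x axis) with its 95% interval, for Detergent A and Detergent B. Filled circles have an adjusted p under 0.05 by edgeR over all genes tested. Only Il1a and Il18 in Detergent B are filled, at 0.68 and 0.99, and the intervals of Il1b are the widest.

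Detergent B was compared with Detergent A directly. None of the 9 genes passed, with adjusted p from 0.9887 to 0.9985, and 0.0% of all genes were called by edgeR, none by DESeq2 and none by limma, while 3.27% had an unadjusted p under 0.05 (0 of the 9 genes). Il1a differed by 0.26 ± 0.15 on the log2 scale (95% interval -0.05 to 0.57), higher than the Detergent A mean in 4 of 6 Detergent B libraries. Il18 differed by 0.35 ± 0.25 (95% interval -0.17 to 0.88), Il1rn by -0.11 ± 0.15 (95% interval -0.43 to 0.21) and Il1b by -0.61 ± 0.65 (95% interval -1.99 to 0.77). Il1a and Il18 were called against PBS in Detergent B and not in Detergent A, but no difference between the detergents was shown for either.

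Ratios within a library set each cytokine beside its antagonist, on the log2 scale of CPM, with no test. Il18bp over Il18 was -3.13 ± 0.85 in Detergent A skin, -3.5 ± 0.34 in Detergent B skin and -2.4 ± 0.35 in PBS skin (SD, n = 6 each). Its highest Detergent B value, -3.07, was below its lowest PBS value, -2.88, and the Detergent A libraries ran from -4.29 to -1.84 across both. Il1rn over Il1a was 2.24 ± 0.32 in Detergent A skin, 1.92 ± 0.36 in Detergent B skin and 2.12 ± 0.22 in PBS skin, and these ranges overlapped. Il1rn over Il1b was 3.89 ± 1.56 in Detergent A skin, 3.89 ± 0.94 in Detergent B skin and 3.71 ± 0.58 in PBS skin, with its lowest value, 1.26, in Detergent A replicate 1. The decoy over the signalling receptor, Il1r2 over Il1r1, was -0.15 ± 0.65 in Detergent A skin, 0.07 ± 0.51 in Detergent B skin and -0.04 ± 0.42 in PBS skin. RNA ratios do not give the ratio of the proteins.

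**Figure D4:**
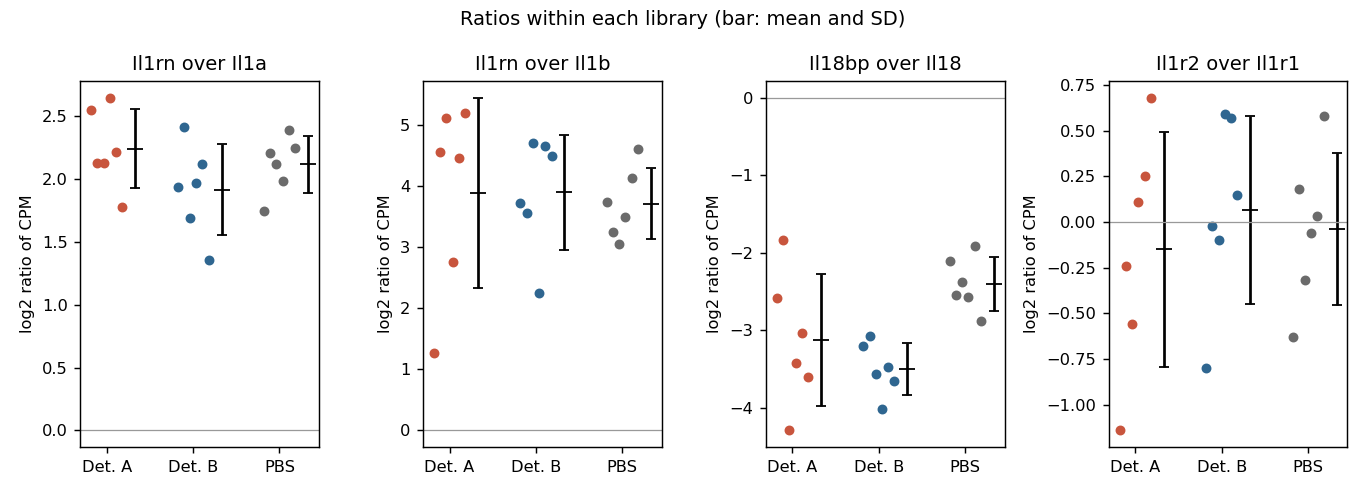
Log2 ratio of CPM (y axis) between an antagonist or decoy and its partner in each library of Detergent A, Detergent B and PBS (x axis), with the mean and SD of 6 libraries as bars. For Il18bp over Il18 the 6 Detergent B points, -4.02 to -3.07, lie below the 6 PBS points, -2.88 to -1.91, and the other ratios overlap between groups.

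Hair keratin RNA, made in growing hair follicles, differed widely between libraries. A score of 9 hair shaft keratin genes, the mean log2 CPM minus the PBS mean, ran from -5.98 to 0.51 in Detergent A skin, from -5.22 to -0.5 in Detergent B skin and from -3.01 to 1.99 in PBS skin. PBS replicate 6 had the lowest score of its group and the highest PBS level of Il1a, Il18, Il18bp, Il1rn, Il1r2 and Il1rap. With the score as a covariate, no gene of the 9 was called. Il1a in Detergent B was then 0.54 ± 0.16 (adjusted p = 0.2444, edgeR), Il18 in Detergent B was 0.58 ± 0.23 (adjusted p = 0.3796), and Il1rn was 0.23 ± 0.11 in Detergent A (adjusted p = 0.5038) and 0.14 ± 0.11 in Detergent B (adjusted p = 0.7107). With that covariate 0 of all genes were called in either detergent, and its part in the differences was not tested further.

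Some keratinocyte markers of the upper epidermis also moved with the Detergent B group. In Detergent B, 2 of 6 suprabasal markers (Krt1 and Dsc1) and 3 of 6 terminal markers (Ivl, Flg and Casp14) were higher than in PBS skin by edgeR, with medians of 0.8 over the suprabasal and 1.06 over the terminal list on the log2 scale. The 6 terminal markers summed to 2343.5 to 5360.6 CPM in Detergent A skin, 4216.7 to 6444.2 in Detergent B skin and 2175.8 to 4623.5 in PBS skin, of which 4623.5 is PBS replicate 6. In the basal list 0 of 6 were called in Detergent B, with a median of 0.13. In Detergent A edgeR called 0 of 6 in each of the 3 lists. The part of keratinocyte RNA in the Il1a and Il18 values was not tested.

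Across the 18 libraries, with group means taken out, the genes most like Il18 were Lipm, a lipase of the epidermis, and Abcd3, a peroxisomal transporter, both with r = 0.97. Lipm averaged 228.8 ± 62.4 CPM in Detergent A skin, 248.8 ± 43.6 in Detergent B skin and 150.5 ± 47.4 in PBS skin, with log2 fold changes of 0.6 ± 0.2 in Detergent A (adjusted p = 0.1269, edgeR) and 0.73 ± 0.2 in Detergent B (adjusted p = 0.05231). The gene most like Il1a was Yod1, a deubiquitinase (r = 0.85), which was higher in Detergent B by 0.69 ± 0.15 (adjusted p = 0.02773), followed by Ap1g2 (r = 0.81). Il1rn was most like Usp15, another deubiquitinase, and Gdnf, both with r = 0.92. Il18bp was most like Loxl3 (r = 0.96) and Ms4a6c (r = 0.94), Il1r1 like Tm4sf1 (r = 0.87) and Ptpn12 (r = 0.86), and Il1r2 like Cyp2f2 (r = 0.94) and Adh1 (r = 0.91). Il1rap was most like Ccdc63 and Arhgap25, both with r = 0.87, and Casp1 like H2afv (r = 0.9) and Rnf130 (r = 0.88). These are the highest of 13627 correlations for each gene, over libraries that share tissue content and depth, and are given as a description.

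Within the axis the likeness was weaker. Il1r2 and Il1rap were each other's nearest gene of the axis (r = 0.67), as were Il18bp and Casp1 (r = 0.55) and Il1b and Il1r1 (r = 0.46). Il18 was nearest to Il1r2 (r = 0.63), Il1a to Il18 (r = 0.57) and Il1rn to Il1b (r = 0.43).

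The other genes of the pathway were read from 8 lists of 72 genes, of which 65 passed the filter. In Detergent B 3 of 65 were called, all higher (3.05% of all genes were called and 1.97% called higher), and 20 had an unadjusted p under 0.05, as did 23.3% of all genes. The median log2 fold change was 0.05, against -0.01 over all genes, and 38 of 65 were positive. In Detergent A edgeR called 0 of 65, with 16 at an unadjusted p under 0.05 (18.8% of all genes) and a median of 0.11. There DESeq2 called 5 of the list genes and limma with quality weights 15. Over all genes DESeq2 called 797 of 15537 given an adjusted p, and limma with quality weights 3914 of 16836. In Detergent B against Detergent A 0 were called by any of these tools, with 2 at an unadjusted p under 0.05.

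The 3 genes called in Detergent B were Traf6, Saa3 and Mmp3. Traf6, the ubiquitin ligase that carries the signal from the IL-1 and IL-18 receptors, ran from 69.9 to 112.1 CPM with a median of 100.7 in Detergent A skin, from 87.5 to 125.1 with a median of 98.4 in Detergent B skin, and from 61.2 to 90.3 with a median of 67.4 in PBS skin. It was higher by 0.55 ± 0.12 in Detergent B (adjusted p = 0.02938, edgeR), with 6 of 6 Detergent B libraries above the PBS median, and was the only one called of 14 genes of receptor signalling. In Detergent A its value was 0.45 ± 0.12 (adjusted p = 0.08002).

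Saa3, an acute-phase protein gene that responds to IL-1, ran from 3.38 to 25.5 CPM with a median of 9.43 in Detergent A skin, from 4.52 to 57.2 with a median of 23.5 in Detergent B skin, and from 1.57 to 8.66 with a median of 4.57 in PBS skin. Detergent B replicate 1, at 4.52 CPM, was within the PBS range and the other 5 were above it. The log2 fold change was 2.67 ± 0.59 in Detergent B (adjusted p = 0.02806, edgeR) and 1.45 ± 0.58 in Detergent A (adjusted p = 0.1906). Mmp3, a matrix metalloprotease gene, ran from 82.5 to 162.2 CPM in Detergent A skin, from 64.9 to 151.7 in Detergent B skin and from 58.4 to 71.1 in PBS skin. Its log2 fold change was 0.73 ± 0.18 in both detergents, with an adjusted p of 0.04144 in Detergent B and 0.06495 in Detergent A, where it did not pass. All 6 Detergent A libraries were above every PBS library, as for 0.404% of all genes. Traf6, Saa3 and Mmp3 kept their Detergent B calls in 11, 12 and 9 of the 18 fits that leave out a library, with highest adjusted p of 0.08746, 0.08706 and 0.1108. All 3 calls were lost without Detergent B replicate 2 or 5 and without PBS replicate 1, 2, 3 or 5. The Traf6 call was also lost without Detergent B replicate 6 (0.06568), and the Mmp3 call without Detergent A replicate 5 (0.05123), Detergent B replicate 4 (0.09001) or PBS replicate 4 (0.05944).

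Apart from the receptor signalling and IL-1 response lists, no list held a gene called by edgeR. The inflammasome sensors and adaptor had median log2 fold changes of 0.18 in Detergent A and 0.33 in Detergent B over 10 genes. Aim2, a sensor of DNA, was at 0.5 ± 0.2 in Detergent A (adjusted p = 0.1886, edgeR) and 0.6 ± 0.2 in Detergent B (adjusted p = 0.09014). Pycard, the adaptor, was at 0.36 ± 0.18 in Detergent A (adjusted p = 0.2884) and 0.48 ± 0.18 in Detergent B (adjusted p = 0.1298). The estimates were positive for both genes in each detergent, and none passed the test.

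Among 7 genes of other processing and release routes, Casp8, a caspase that can also cut IL-1 beta, was at 0.32 ± 0.09 in Detergent A (adjusted p = 0.08155) and 0.23 ± 0.09 in Detergent B (adjusted p = 0.1334). Capn2, a calpain chain, was at 0.31 ± 0.2 in Detergent A and 0.07 ± 0.2 in Detergent B. Of 8 brakes on signalling, Irak3, which holds back IL-1 receptor signalling, was at 0.39 ± 0.1 in Detergent A (adjusted p = 0.06158) and 0.26 ± 0.1 in Detergent B (adjusted p = 0.1162), and Tollip at 0.24 ± 0.11 in Detergent A and 0.23 ± 0.11 in Detergent B. Il1rl2, the IL-36 receptor chain that pairs with Il1rap, was at 0.45 ± 0.13 in Detergent A (adjusted p = 0.09018) and 0.3 ± 0.13 in Detergent B (adjusted p = 0.1676). The receptor signalling gene Tab2 was at 0.11 ± 0.07 in Detergent A (adjusted p = 0.4021) and 0.22 ± 0.07 in Detergent B (adjusted p = 0.07811).

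Downstream of the receptors, the 18 measured IL-1 response genes had a median log2 fold change of 0.67 in Detergent A and 0.05 in Detergent B. Over all genes it was -0.01 in each, and 11 of the 18 were positive in each detergent. An unadjusted p under 0.05 by edgeR was reached by 7 of the 18 in Detergent A (18.8% of all genes) and 4 in Detergent B (23.3%). In Detergent B against Detergent A the list median was -0.03, with 8 of 18 positive and 0 called. There 2 had an unadjusted p under 0.05 (3.27% of all genes), so the unlike medians do not show a difference between the detergents. Some Detergent A values rest on few libraries: Cxcl2 and Cxcl5 reached 35.7 and 10.9 CPM there, with medians of 2.1 and 0.924. Their PBS medians were 1.33 and 1.02 CPM. Ptges, a prostaglandin synthase gene, was at 0.6 ± 0.24 in Detergent A (adjusted p = 0.1832, edgeR) and 0.54 ± 0.24 in Detergent B (adjusted p = 0.1747). The 4 measured IL-18 response genes had medians of -0.47 in Detergent A and -0.54 in Detergent B, and 0 of 4 were called by edgeR, 0 of them at an unadjusted p under 0.05. Cxcl9, a chemokine gene induced by interferon-gamma, was at -0.25 ± 0.28 in Detergent A and -0.51 ± 0.28 in Detergent B. Cxcl10, another of these, was at -0.56 ± 0.47 in Detergent A and -0.57 ± 0.47 in Detergent B. The Cxcl10 values rest on PBS replicate 6 (18.5 CPM, against 1.9 to 6.86 in the other 5). Without that library they were 0.12 in Detergent A and 0.11 in Detergent B. Cxcl9 was also highest in PBS replicate 6 (5.59 CPM, against at most 3.42 in the other 5). Without that library its value in Detergent A was 0.01. Il18r1, a chain of the IL-18 receptor, was at 0.26 ± 0.2 in Detergent A and -0.07 ± 0.2 in Detergent B. Ifng, the main target of IL-18 in lymphocytes, did not pass the filter and had at most 5 counts in any library.

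**Figure D5:**
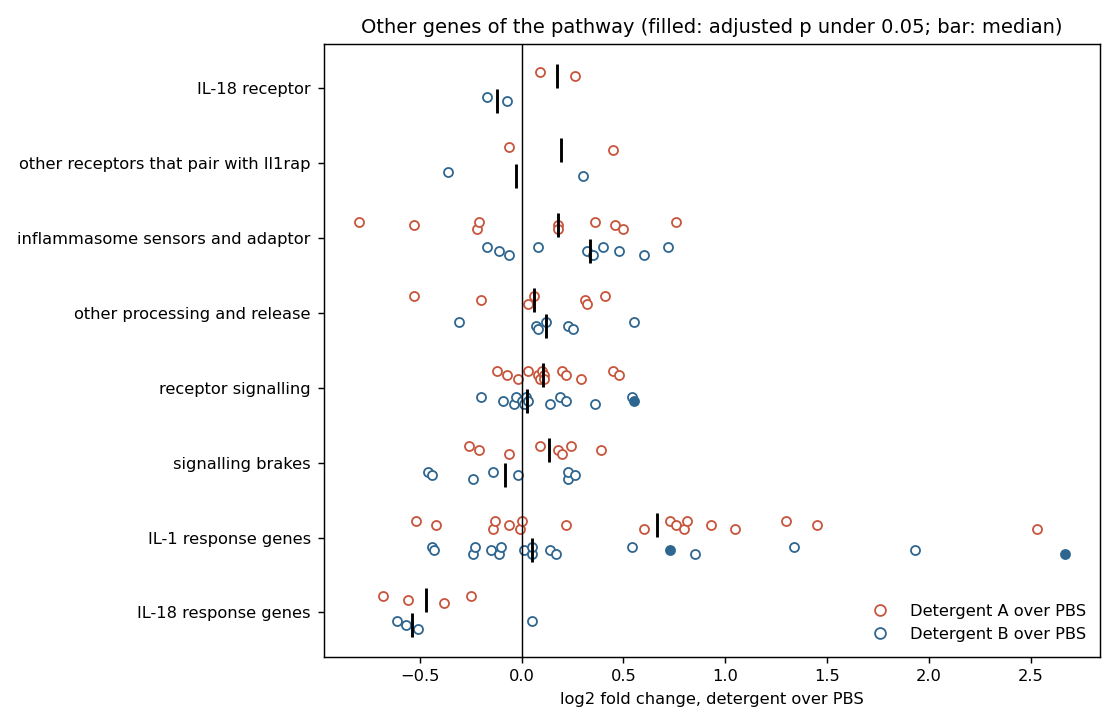
Log2 fold change over PBS (x axis) of the 65 measured genes of 8 pathway lists (y axis), for Detergent A and Detergent B, with black bars at list medians and filled circles where the adjusted p was under 0.05. The 3 filled circles are Traf6 (0.55), Mmp3 (0.73) and Saa3 (2.67) in Detergent B.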

How the data were processed

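Total RNA of mouse skin was sequenced, and the authors deposited 1 file of whole-number read counts per gene for each of 18 libraries, with no normalization, judging from totals that differ between libraries. STAR, featureCounts and GRCm38.p5 were used, per the submitters' processing notes. The strand setting, like the tool versions, the annotation release and the handling of multi-mapping reads, is not given in the sources used here.

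Symbols and coordinates came from GENCODE M21 on GRCm38, which matched 41519 of 41605 identifiers and left 86 unmatched. The test was edgeR 4.0.16 (R 4.3.3): default low-count filter on group (16836 genes kept), TMM scaling, a robust quasi-likelihood fit of all 18 libraries with group as the only term (15 residual degrees of freedom), and Benjamini-Hochberg adjustment over all genes with a threshold of 0.05. A standard error is the log2 fold change over the square root of F, with 95% intervals from the t distribution. CPM used TMM-scaled library sizes, and log2 CPM a prior count of 2. CPM per kb divides by the summed exon length. The code was tested on simulated counts. No libraries of a group were duplicates, since the lowest chi-square per gene between libraries of a group was 9.481. Alternatives used DESeq2 1.42.0, limma 3.58.1 with quality weights, other scalings, filters and samples.

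All 9 genes are named. In each pathway list the genes past the threshold (up to 6 by smallest p), the highest mean CPM and the smallest p are named, and for likeness the 2 protein-coding genes of at least 1 CPM with the highest Pearson r. The genes, lists and tests were chosen with earlier results of these data known. The labels do not say that libraries came from separate animals, so p-values measure the spread between these libraries, which may be technical in part. Promoters came from RefSeq.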

Additional observations from a re-analysis of the deposited data

Results flagged for a closer look

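Of 84 sets of 6 values screened for a library far from the others of its group, 5 were singled out, where chance alone gives about 1 in 20. Il1b in Detergent B was 32.5 CPM in replicate 4 and 4.62 to 13.7 CPM in the other 5. In PBS skin, replicate 6 was the far library for Il18 (76.7 CPM, others 28.1 to 46.3), Il18bp (10.3 CPM, others 6.29 to 7.78), Aim2 (5.42 CPM, others 2.36 to 3.39) and Cxcl10 (18.5 CPM, others 1.9 to 6.86).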

How the results depend on the processing

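The 9 genes gave 756 fold changes under other settings, of which 18 lost a call, 11 gained one and 5 turned sign from at least 0.1 on the log2 scale; another 49 nearer 0 also changed sign. Il1b in Detergent B against PBS was -0.03 with limma's quality weights, -0.01 without the highest Il1b library of each detergent, and -0.01 to 0.76 leaving out single libraries; against Detergent A it was -1.23 to 0.26. Casp1 in Detergent B was -0.03 with library totals, which moved the median of all genes to -0.11 in Detergent A and -0.14 in Detergent B, against -0.01 in both. Pycard in Detergent B against Detergent A was -0.02 without the highest Il1b libraries. Cxcl10 was -0.81 to 0.12 in Detergent A and -0.81 to 0.11 in Detergent B leaving out single libraries, and 0.08 in Detergent B with quality weights; Cxcl9 in Detergent A was -0.45 to 0.01.

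Calls over all genes in Detergent A were 32, against 797 with DESeq2, 3914 with quality weights, 220 with library totals, 0 with the hair score, 0 without the highest Il1b libraries, and 0 (several libraries) to 888 (PBS replicate 6) leaving out single libraries. Of the 9 genes 0 were called there, against 1 with DESeq2, 3 with quality weights and 0 to 2 leaving out libraries; of the pathway lists 0, against 5, 15 and 0 to 6. In Detergent B 514 genes were called, against 1391 with DESeq2, 5074 with quality weights, 961 with library totals, 251 without the filter, 0 with the hair score, 181 without the highest Il1b libraries, and 28 (PBS replicate 3) to 1888 (PBS replicate 6) leaving out single libraries. Of the 9 genes 2 were called, against 0 with the hair score, 1 without the filter, 1 without the highest Il1b libraries, 3 with quality weights or with only the 12 libraries compared (Il1rn added) and 0 to 3 leaving out libraries. Of the pathway lists 3 were called, against 7 with DESeq2, 22 with quality weights, 0 with the hair score, 1 without the filter and 0 to 8 leaving out libraries. The causes were not tested. No alternative called a gene in Detergent B against Detergent A.

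Groups share replicate numbers. Over 18 same-numbered pairs the r of deviations from the group means ran from -0.348 to 0.546, with 8 over 0.1. Of the 18 libraries, 5 correlated best with their own number. These values do not settle whether same-numbered libraries were paired. With the replicate number as a block, 0 genes were called in Detergent A and 377 in Detergent B, with Il1a and Il18 called in Detergent B. The Saa3 call there was lost (log2 fold change 2.62, adjusted p = 0.06094), while Traf6 and Mmp3 were called.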
